A study of Mus musculus with 2 samples.

Results

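The 86 nuclei described here are tumour macrophage nuclei rich in transcripts of Mmp12, the macrophage elastase, and low in the marker set that goes with Gpnmb. They were chosen by counts of unique molecular identifiers (UMIs), each of which stands for 1 captured RNA molecule. A nucleus needed 1000 or more UMIs, at most 5% of them from mitochondrially encoded genes, 3 or more UMIs summed over 7 macrophage genes (Csf1r, Adgre1, Mertk, Ptprc, C1qa, C1qb and C1qc) and under 1000 CPM (UMIs of a gene per 1000000 UMIs of the nucleus or nuclei summed) over 5 epithelial genes (Epcam, Krt8, Krt18, Cdh1 and Elf5). Of 1838 barcodes, 1115 passed these 4 conditions and are called macrophage nuclei below. Nuclei with more than 2 UMIs summed over F13a1, Mrc1, Cd163, Lyve1 and Retnla, genes of tissue-resident macrophages, were then left out, as were those with more than 1 UMI summed over Gpnmb, Pdpn and Pde10a. The remaining 852 nuclei were divided by Mmp12: 86 had 3 or more UMIs, and 766 had fewer. These 766 are called the gate-matched nuclei, and the 1029 macrophage nuclei outside the 86 are called the other macrophage nuclei.

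The study profiled tumour-associated macrophages from mammary tumours of mice with the PyMT oncogene, on a B6 backcross background. It had 1 control-PyMT sample and 1 MYC-PyMT sample, and the MYC-PyMT mice also carried S100a8-cre with a cre-dependent MYC allele at Rosa26, so that the promoter of a myeloid gene drives the recombinase. Both groups were lethally irradiated at 7 weeks of age, rebuilt with marrow of donors that had Fcgr1-cre and a Rosa26 LSL-H2B-mCherry allele, so that a history of Fcgr1 expression leaves red nuclei, and moved 2 weeks later to a low protein diet for 6 weeks. Living cells were sorted for CD45, F4/80 and Vcam and against Siglec-F, Ly6G, B220 and Ly6C, and their nuclei were sorted again for mCherry and a nucleic acid dye and against CD11b. The donors are described without a MYC allele, and the number of mice per sample is not stated.

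Mmp12 encodes a secreted, zinc-dependent protease made mainly by macrophages, which cleaves elastin and other matrix proteins. Slc7a11 is the cystine-importing chain of the cystine/glutamate antiporter, and the cystine it brings in feeds the synthesis of glutathione. Prdx1 is a peroxiredoxin, an enzyme that removes hydrogen peroxide, and thioredoxin reductase (Txnrd1) keeps this system supplied with electrons. Alcam (CD166) is a cell adhesion molecule of the immunoglobulin family. Macrophages turn on Mmp12 in several settings of inflammation, lipid loading and tissue remodelling.

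The files hold barcodes of 2 wells, and no label ties a well to a genotype. The genotypes therefore could not be compared, the matrix counts as 1 sample, and no test between groups was possible. The wells stood apart. Xist, which is transcribed from the inactive X chromosome, stood at 1847 CPM in macrophage nuclei of well 1 and 4.97 CPM in those of well 2, while the Y-linked gene Uty had 0 UMIs in well 1 and stood at 362 CPM in well 2. Nuclei with the resident genes made up 5.80% of macrophage nuclei in well 1 and 52.8% in well 2. For that reason each level below is set beside that of the other macrophage nuclei and, where the wells matter, beside the gate-matched nuclei of well 1 alone. The wells shared 9 barcode sequences, 0 of them with a member. Intervals in parentheses are exact 95% intervals for counting error only, and they do not cover differences between mice or libraries. Because the members were chosen by counts of these same nuclei, every ratio below is a description.

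The Mmp12-high nuclei were 7.71% (6.22 to 9.44) of the macrophage nuclei. In well 1 they were 80 of 776, or 10.3% (8.26 to 12.7), and in well 2 they were 6 of 339, or 1.77% (0.652 to 3.81). Among nuclei that passed every gate but the Mmp12 count, well 1 had 11.1% members (8.87 to 13.6) and well 2 had 4.65% (1.73 to 9.85), with intervals that overlap. The resident gate alone removed 45 of 776 macrophage nuclei in well 1 and 179 of 339 in well 2. Of all 95 macrophage nuclei with 3 or more Mmp12 UMIs, the Gpnmb gate barred 7 and the resident gate 2. Free RNA can give UMIs to nuclei that do not transcribe a gene. Among 256 nuclei that failed the epithelial condition, with a median of 4414.5 UMIs, 0.781% (0.0948 to 2.79) had 3 or more Mmp12 UMIs. Lower counts were as common there: 14.8% had 1 or more Mmp12 UMIs, beside 15.2% of the other macrophage nuclei. With each nucleus thinned to 1000 UMIs these shares were 7.03% (4.22 to 10.9) and 5.83% (4.48 to 7.44). The 346 barcodes under 1000 UMIs, which the rule leaves out, held Mmp12 at 255 CPM (195 to 328), above the level of the macrophage nuclei outside the group, and 4 of them had 3 or more UMIs. The part of free RNA in the Mmp12 counts was not tested.

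**Figure D1:**
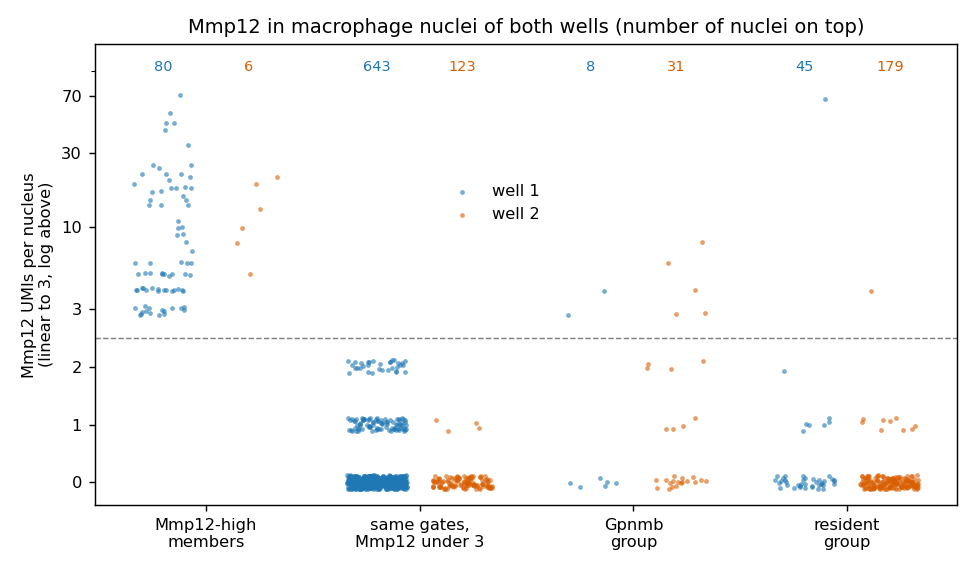
Mmp12 UMIs in each macrophage nucleus (vertical axis, linear up to 3 and logarithmic above) for the 86 Mmp12-high nuclei, the 766 gate-matched nuclei, the 39 nuclei of the Gpnmb group and the 224 nuclei with resident genes, with well 1 in blue and well 2 in orange. Points are moved slightly at random so that they can be told apart, and the dashed line marks the limit of 3 UMIs that chose the first group, of which 80 nuclei came from well 1 and 6 from well 2.

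Mmp12 itself had 1017 UMIs in the 86 nuclei and stood at 2933 CPM (2755 to 3118), against 80.9 CPM in the other macrophage nuclei, 63.2 CPM in the gate-matched ones and 17.5 CPM in the epithelial ones. The rule sets this contrast. Within the group the count ran from 3 to 71 UMIs with a median of 6, and per nucleus the level ran from 424 to 12002 CPM with a median of 2020 CPM. The transcripts were unevenly held: 42 members had 3 to 5 UMIs, 44 had 6 or more, and 16 nuclei held at least 50% of all Mmp12 UMIs of the group. At the limit, the 33 nuclei with 2 UMIs just outside had a median of 614 CPM, and the 16 with 3 UMIs just inside had a median of 917 CPM, all of them from well 1. The limit therefore cuts through a continuous range and does not fall in a gap. Members were also deeper, with a median of 3836.5 UMIs per nucleus against 3018 in the other macrophage nuclei and 2914 in the gate-matched ones, and a minimum of 3 UMIs favours deep nuclei. Across the 852 nuclei, the Mmp12 level as log(1 + CPM/100) and log10 total UMIs had a Pearson correlation of 0.0883. That level is already scaled to depth, so the value does not describe the UMI count used by the limit.

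The gate itself asks for macrophage genes, so the label was checked on 18 macrophage identity genes outside it. All 18 had UMIs in members, with a summed level of 3596 CPM against 3913 CPM in the other macrophage nuclei and 1736 CPM in the epithelial ones. Of the gate genes, Csf1r, the receptor for CSF1, stood at 562 CPM in members and 570 CPM in the other macrophage nuclei. Adgre1, which encodes F4/80, stood at 314 CPM in members with 0.63 times the level of the gate-matched nuclei, and Mertk, a receptor for dying cells, at 297 CPM with 0.47 times that level. Fcgr1, whose promoter drives the cre of the marrow donors, had 14 UMIs in 9 members and stood at 40.4 CPM (22.1 to 67.7), against 61.7 CPM in the other macrophage nuclei. Markers of most other cells were scarce. The eosinophil and NK cell lists had 0 UMIs in members, the neutrophil list came from Csf3r alone of its 8 genes (83.6 CPM in 21 members, 94.7 CPM in the other macrophage nuclei), and the T cell, mast cell and fibroblast lists each came from 1 gene with a summed level of 2.88, 5.77 and 2.88 CPM. The endothelial list stood at 60.6 CPM in 9 members, 1.87 times the other macrophage nuclei (1.11 to 2.99) and 2.78 times the gate-matched nuclei of well 1, with Pecam1, which myeloid cells also transcribe, as 54.8 CPM of it and Cdh5, Kdr, Flt1 and Tek at 0. Epithelial genes outside the gate were not scarce: 80 of 86 members held a UMI of 1 or more of 13, with 1693 CPM against 1946 CPM in the other macrophage nuclei and 9709 CPM in the epithelial ones. Trps1 gave 1102 CPM of that sum and the milk protein gene Csn3 299.9 CPM. The part of epithelial RNA in the results was not tested.

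The other markers proposed for the group did not mark it evenly. Of the 4 markers, 9 members had UMIs of Mmp12 alone, 47 of 2 markers, 24 of 3 and 6 of all 4. Alcam was the broadest, with UMIs in 62 of 86 members, and Slc7a11 the narrowest, with UMIs in 14. The group is therefore called Mmp12-high below, and not by Slc7a11 or Prdx1.

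Alcam had 522 UMIs in members and stood at 1505 CPM (1379 to 1640), against 629 CPM in the other macrophage nuclei, 2.39 times as much (2.17 to 2.63). In well 1 it stood at 1332 CPM in members and 411 CPM in the gate-matched nuclei, and in well 2 at 4009 CPM and 1224 CPM. Alcam was thus higher in members within each well, and all 6 members of well 2 held it. When every nucleus was thinned to 1000 UMIs, 45.3% of members (34.6 to 56.5) and 30.8% of the other macrophage nuclei (28.0 to 33.7) kept an Alcam UMI, compared with 20.7% of epithelial nuclei. Before thinning the shares were 72.1%, 44.2% and 43.8%.

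Slc7a11 had 69 UMIs in members and stood at 199 CPM (155 to 252), against 31.6 CPM in the other macrophage nuclei, 6.30 times as much (4.60 to 8.58). Those UMIs sat in 14 nuclei, of which 1 held 24.6%. Without the nucleus that held most, the ratio was 4.85. After thinning, 9.30% of members (4.10 to 17.5) and 2.72% of the other macrophage nuclei (1.82 to 3.91) had a UMI, beside 0.391% of epithelial nuclei, and before thinning the shares were 16.3%, 6.32% and 2.34%. Slc7a11 transcripts were therefore higher in the group on average but went unseen in 72 of its nuclei, where the depth cannot separate low from absent.

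Prdx1 had 151 UMIs in members and stood at 435 CPM (369 to 511), against 191 CPM in the other macrophage nuclei, 2.29 times as much (1.90 to 2.73). One nucleus held 29.1% of these UMIs, and without it the ratio was 1.65. After thinning, 17.4% of members (10.1 to 27.1), 15.5% of the other macrophage nuclei (13.3 to 17.8) and 18.0% of epithelial nuclei kept a Prdx1 UMI, at 43.0%, 38.6% and 57.4% before thinning. By shares of nuclei, then, Prdx1 did not set the group apart at this depth, and its higher level came from few nuclei.

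Most Prdx1 UMIs of the group lay in the few members with a Slc7a11 UMI, but by nuclei the overlap was less marked. The 14 members with a Slc7a11 UMI, 13 from well 1 and 1 from well 2, held 18.0% of the UMIs of the group and 67.5% of its Prdx1 UMIs (102 of 151). By sum, Prdx1 stood at 1638 CPM in these 14 and at 172 CPM in the other 72, 9.51 times as much (6.70 to 13.7). In the 72 it was 0.904 times the level of the other macrophage nuclei. Of the 102 UMIs, all lay in 8 of the 14 nuclei and 68 in 2 of them. Without those 2 nuclei, Prdx1 stood at 686 CPM in the rest of the 14. Of all 86 members, 37 held a Prdx1 UMI. Sums over the 14 were also higher for Txnrd1, at 995 CPM against 211 CPM in the 72 (4.72 times, 3.26 to 6.85), for the ferritin light chain Ftl1, at 2135 CPM against 756 CPM, and for the cytokine gene Tnf, at 979 CPM against 151 CPM. These sums rest on few nuclei and are no trait of all 14: 3 nuclei held 41 of the 62 Txnrd1 UMIs and 4 held 0, 2 nuclei held 51 of the 61 Tnf UMIs, and 2 held 86 of the 133 of Ftl1. Without the top 2 nuclei of each gene the 14 stood at 671 CPM for Txnrd1, 191 CPM for Tnf and 948 CPM for Ftl1. Cxcl2, a chemokine that draws neutrophils, stood at 2119 CPM in them and 489 CPM in the 72. Fnip2, a partner of folliculin in amino-acid signalling at the lysosome, stood at 2103 CPM against 1002 CPM, but at 734 CPM without the 2 nuclei that held most. By sum, other transcripts ran the opposite way. Nlrp3, the inflammasome sensor, stood at 161 CPM in the 14 and 538 CPM in the 72, and the fractalkine receptor gene Cx3cr1 at 80.3 CPM and 253 CPM. By nuclei these contrasts were smaller. Nlrp3 was seen in 6 of the 14 and 41 of all 86 members, and Cx3cr1 in 4 of the 14 and 33 of the 86. Ifit2, an interferon-induced gene, had 0 UMIs in the 14 and 76 in the 72. Those 76 lay in 10 nuclei, of which 1 held 25 and another 19, so its absence from 14 nuclei says little. Dcstamp and Vcam1 were close to even, with ratios of 0.938 (0.616 to 1.39) and 0.946 (0.576 to 1.49). The median depth was 4372 UMIs in the 14 and 3731.5 in the 72, and deeper nuclei are more likely to be placed in the first set.

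The upstream sequences of Mmp12, Slc7a11 and Prdx1 are shown because Mmp12 chose the group and because most Prdx1 UMIs fell in nuclei with Slc7a11. They come from RefSeq on GRCm38.p6, run towards the RefSeq start and leave out any base that lies in an annotated exon. A stretch can therefore end short of that start. The motifs below were searched on both strands: TGACNNNGC, the core of the antioxidant response element bound by NRF2; TGATGNAA, the amino-acid response element bound by ATF4; TGANTCA, bound by AP-1; and the E-box CACGTG. Capitals mark matches. Mmp12 is on chr9:7344247-7344380 (plus strand), Slc7a11 on chr3:50443615-50443763 (minus strand, printed in the direction of transcription) and Prdx1 on chr4:116685449-116685543 (plus strand).
Mmp12: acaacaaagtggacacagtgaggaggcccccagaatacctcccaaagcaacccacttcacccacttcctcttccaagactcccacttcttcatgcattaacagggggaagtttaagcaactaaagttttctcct
Slc7a11: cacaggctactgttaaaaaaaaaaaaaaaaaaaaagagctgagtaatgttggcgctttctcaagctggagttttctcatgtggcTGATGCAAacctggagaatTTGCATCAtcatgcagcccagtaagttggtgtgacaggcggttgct
Prdx1: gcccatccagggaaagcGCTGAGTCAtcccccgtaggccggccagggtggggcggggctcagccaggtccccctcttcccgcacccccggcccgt

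The Slc7a11 stretch held the amino-acid response letters in both orientations, at bases -66 to -59 and -47 to -40 from the RefSeq start. Positions in Prdx1 also count from the RefSeq start, and the 55 bases next to that start were left out of the printed stretch. The antioxidant letters of Prdx1 lay on the reverse strand at -133 to -125 and overlapped an AP-1 match at -131 to -125. Its 250-base window held a further AP-1 match at -237 to -231, outside the printed stretch. Over the 250-base windows of 32851 RefSeq promoters, 10.2% held the antioxidant letters, 3.45% the amino-acid response letters, 6.75% the AP-1 letters and 6.02% the E-box. The window of Mmp12 held 0 of the 4 motifs, which says only that these letters are missing there. For Alcam 993 bases were left out and 0 remained, so no stretch is printed. Its count of 0 motifs therefore cannot be read as an absence. A match is a description of the sequence and no evidence that a factor was bound.

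Across the genome the Mmp12-high nuclei differed from the other macrophage nuclei in few genes. Of 5378 genes with enough UMIs to be compared, 176 (3.27%) stood at least 2-fold higher in members and 344 (6.4%) at least 2-fold lower, with a median log2 ratio of -0.13. Against the gate-matched nuclei 168 of 5286 genes (3.18%) were 2-fold higher and 252 (4.77%) 2-fold lower. Within well 1 and against gate-matched nuclei, 186 of 5096 genes (3.65%) were higher and 246 (4.83%) lower. Of the 176 higher genes, 124 were also 2-fold higher within well 1, which is 70.5% of the first list and 66.7% of the second. Of the 344 lower genes, 187 were also 2-fold lower there, or 54.4% and 76.0%. Gate matching alone, with both wells, kept 135 of the 176 higher genes (76.7%) and 207 of the 344 lower ones (60.2%). In the counts over gene lists below, 3.27% higher, 6.4% lower and a median log2 ratio of -0.13 are the values over all genes against which each list stands, and the lists were chosen with results of these data known.

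Among genes seen in at least 10 nuclei of a side and with at most 25% of their UMIs in 1 nucleus, those highest in members, apart from the rule's own, were Cxcl2, Slc7a11, Tnip3, Dcstamp and Il7r. Cxcl2 stood at 781 CPM (691 to 880) against 116 CPM in the other macrophage nuclei, 6.75 times as much, with UMIs in 30 members. Tnip3, which restrains NF-kB signalling, stood at 303 CPM against 48.2 CPM, 6.28 times as much, with UMIs in 35 members. Dcstamp, a membrane protein needed for macrophages and osteoclasts to fuse, stood at 525 CPM (451 to 607) against 85.7 CPM, 6.12 times as much, with UMIs in 41 members. Il7r, the interleukin 7 receptor, stood at 161 CPM against 36.6 CPM, 4.41 times as much. Within well 1 and against gate-matched nuclei the ratios were 6.68 for Cxcl2, 8.66 for Tnip3, 4.15 for Dcstamp and 4.30 for Il7r.

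Mmp13, Ifit2, Isg15 and Cxcl10, which fell outside that limit on 1 nucleus or on the number of nuclei, had ratios of 10.1, 5.51, 4.79 and 4.17. Within it, the next genes by ratio were the proliferation gene Mki67 (3.89), the class I-like gene H2-M2 (3.89), the small Maf factor Maff (3.77), the elongation factor Ell2 (3.58), Zbtb10 (3.55), Plau (3.33), the nuclear receptor Nr4a3 (3.19), Nlrp3 (3.18), Cd36 (3.17) and Opa3 (3.16). Ell2 was broad, with UMIs in 59 members and 807 CPM against 225 CPM. Plau, the urokinase that turns plasminogen into plasmin, had UMIs in 54 members and stood at 657 CPM (575 to 749) against 198 CPM. Cd36, a scavenger receptor for oxidised lipid, had UMIs in 31 members and stood at 490 CPM (419 to 570) against 154 CPM. After thinning, 34.9% of members and 13.8% of the other macrophage nuclei kept a Plau UMI, and 20.9% and 8.75% a Cd36 UMI. In epithelial nuclei the shares were 3.12% and 3.52%, lower than in either macrophage set. Before thinning, Plau was seen in 62.8% of members, 26.0% of the other macrophage nuclei and 9.77% of epithelial nuclei, and Cd36 in 36.0%, 19.0% and 5.47%.

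The 6 members of well 2 shared only part of this. Lgals3 had UMIs in 4 of the 6 and Cd44 in all 6, but Dcstamp, Nlrp3 and Il1b had 0 UMIs in the 22449 UMIs of these nuclei, where a count of 0 allows up to 134 CPM. The Cd36 UMIs of well 2 members, 15 in number, came from 1 nucleus, and so did the 9 of Cxcl2. Statements about Dcstamp, Nlrp3 and Il1b therefore rest on well 1.

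The genes lowest in members were led by Sorbs2, with 0 UMIs in members and 62.3 CPM in the other macrophage nuclei. The C-type lectin receptor Clec4a1 stood at 2.88 CPM against 103 CPM, and the cyclic AMP phosphodiesterase Pde4d at 14.4 CPM against 220 CPM. Pde4d was also lower than in gate-matched nuclei of well 1, at 0.0876 times their level. Esrrg, Tiam1, Spon1 and Gng12 followed with ratios of 0.040, 0.044, 0.077 and 0.081, beside Pltp and Ccr2. Pltp, a phospholipid transfer protein, stood at 5.77 CPM against 74.1 CPM, but in well 1 members and gate-matched nuclei had the same level, 6.17 CPM. Ccr2, the receptor that brings monocytes into tissue, stood at 14.4 CPM against 171 CPM, and at 9.25 CPM against 25.2 CPM within well 1.

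The matrix-degrading genes other than Mmp12 differed little as a list. Of 18 listed metalloproteinases and inhibitors, 7 had enough UMIs, and 1 was 2-fold higher and 0 lower, with a median log2 ratio of 0.33. The 1 was Mmp13, a collagenase, at 213 CPM (168 to 268) against 21.1 CPM, 10.1 times as much. Only 13 members held Mmp13, 1 of them with 39.2% of its UMIs, and 5 of the 13 also held Slc7a11. Mmp14, a membrane-bound member of the family, stood at 291 CPM against 218 CPM. Mmp9 and Mmp3 had 0 UMIs in members.

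Of 23 genes counted in the list for cystine import, glutathione and NRF2 targets, 4 were 2-fold higher (Slc7a11, Txnrd1, Prdx1 and Gclc) and 1 lower (Keap1, the adaptor that marks NRF2 for degradation). The list median was 0.34 on the log2 scale, and its summed level was 1.44 times that of the other macrophage nuclei (1.38 to 1.51) and 1.47 times that of gate-matched nuclei in well 1. Txnrd1 stood at 352 CPM (292 to 420) against 112 CPM, 3.14 times as much, with UMIs in 47 members. After thinning, 23.3% of members and 8.36% of the other macrophage nuclei kept a Txnrd1 UMI, but so did 14.1% of epithelial nuclei, and before thinning the shares were 54.7%, 23.1% and 44.5%. Gclc, the catalytic chain of the first enzyme of glutathione synthesis, stood at 136 CPM against 65.1 CPM. Gclm, its regulatory chain, stood at 23.1 CPM against 24.2 CPM, and Slc3a2, the heavy chain that pairs with Slc7a11, at 138 CPM (102 to 184) against 113 CPM. Hmox1 stood at 173 CPM against 116 CPM, but 1 nucleus of well 2 held 55.0% of its UMIs. Nfe2l2, which encodes NRF2 itself, stood at 1597 CPM (1467 to 1736) against 961 CPM. Of 8 genes counted for the ATF4 response, 1 was higher, the arginine transporter Slc7a1 at 141 CPM against 70.5 CPM.

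Several inflammatory transcripts stood higher. In the list for interleukin 1, TNF and NF-kB, 5 of 15 genes were 2-fold higher and 0 lower, with a median log2 ratio of 0.86 and a summed level 1.76 times that of the other macrophage nuclei (1.67 to 1.85). The rise rests on well 1, where members stood at 5189 CPM. The 6 members of well 2 stood at 2227 CPM (1653 to 2936), against 2838 CPM in the other macrophage nuclei. Nlrp3 stood at 470 CPM (401 to 548) against 148 CPM, Il1a at 231 CPM against 73.6 CPM and Tnf at 300 CPM (245 to 363) against 116 CPM. One nucleus held 27.9% of the Tnf UMIs, and without it the ratio was 1.89 in place of 2.58. Il1b stood at 582 CPM (505 to 669) against 351 CPM, 1.66 times as much, and 1.25 times the level of gate-matched nuclei in well 1. After thinning, 31.4% of members and 9.82% of the other macrophage nuclei kept a Nlrp3 UMI, and 36.0% and 17.9% an Il1b UMI, with 2.73% and 6.64% in epithelial nuclei. Before thinning, Nlrp3 was seen in 47.7%, 22.2% and 8.20% of these 3 sets, and Il1b in 47.7%, 26.3% and 16.8%.

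Chemokine genes went both ways. Of 10 counted, 5 were 2-fold higher, among them Cxcl2, Cxcl10 and Ccl4, and 3 were lower, among them Ccl6 and Ccl9. Ccl4, a chemokine for T cells and monocytes, stood at 666 CPM (583 to 758) against 315 CPM, but in well 2 at 89.1 CPM in members. Ccl6 stood at 20.2 CPM against 146 CPM, while within well 1 it stood at 21.6 CPM in members and 18.0 CPM in gate-matched nuclei, the opposite direction. Ccl9 stood at 11.5 CPM against 98.9 CPM and at 0.361 times the level of gate-matched nuclei in well 1. Against the gate-matched nuclei, 4 of 6 chemokine genes were higher and 0 lower. Of 18 immediate early genes, 2 were higher, Nr4a3 and Fosb, and 0 lower, with a median of 0.41 on the log2 scale. Of 12 heat shock genes, 0 were higher and 1 was lower, the mitochondrial chaperone Hspd1 at 40.4 CPM against 89.9 CPM.

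Interferon-induced genes were high in few members. Of 17 counted, 6 were 2-fold higher and 1 lower, yet 1 nucleus held 32.9% of the Ifit2 UMIs and another 59.5% of those of Isg15, a ubiquitin-like modifier. The first had 25 Ifit2 and 0 Isg15 UMIs, and the second 19 and 22. Ifit2 stood at 219 CPM (173 to 274) against 39.7 CPM, with UMIs in 10 members, and Isg15 at 107 CPM against 22.3 CPM, with UMIs in 9. Only 2 nuclei held both. Summed, the interferon list stood at 2729 CPM in members of well 1 and 624 CPM (341 to 1046) in the 6 of well 2. The other macrophage nuclei stood at 2027 CPM for it. After thinning, 9.30% of members (4.10 to 17.5) and 3.40% of the other macrophage nuclei kept an Ifit2 UMI, beside 3.52% of epithelial nuclei, and 3.49%, 2.04% and 3.91% an Isg15 UMI. Before thinning, Ifit2 was seen in 11.6%, 7.29% and 10.2%, and Isg15 in 10.5%, 5.73% and 19.9%. Mki67 and Top2a, genes of dividing cells, were also held by few nuclei, 11 and 8 of the 86, with 6 that held both. Mki67 stood at 124 CPM (89.7 to 167) against 31.9 CPM and Top2a at 63.4 CPM (39.8 to 96.0) against 22.3 CPM. After thinning, 4.65% of members (1.28 to 11.5), 2.72% of the other macrophage nuclei and 7.03% of epithelial nuclei kept a Mki67 UMI, with intervals of the 2 macrophage sets that overlap. Before thinning the shares were 12.8%, 5.35% and 18.4%.

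**Figure D2:**
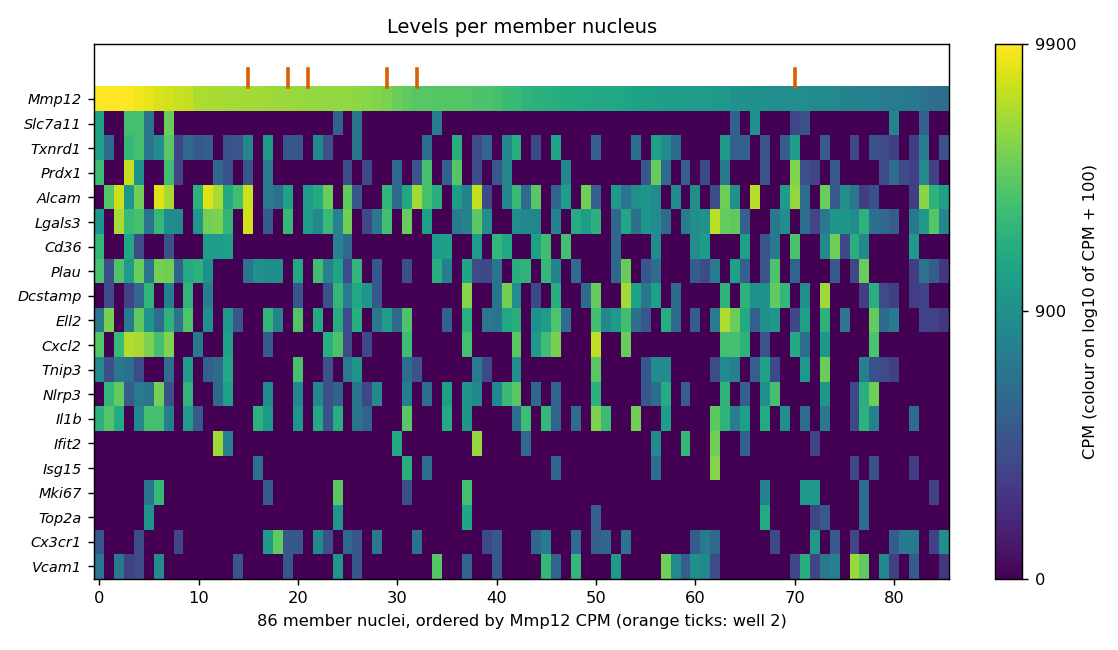
Level of 20 genes (rows) in each of the 86 Mmp12-high nuclei (columns, ordered from the highest Mmp12 level on the left to the lowest on the right), as CPM per nucleus with colour on a log10 scale after adding 100. Orange ticks on top mark the 6 nuclei of well 2, and dark cells are genes without a UMI in that nucleus, as for Slc7a11 in 72 of the 86 and Ifit2 in 76.

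Genes of the lipid-associated macrophage programme were split against all other macrophage nuclei and not against gate-matched ones. This programme, known from fat tissue, plaques and tumours, includes Gpnmb, which the rule removes. Of 20 genes counted, 4 were 2-fold higher, among them Lgals3 and Cd36, and 2 were lower, Ctsl and Syngr1, with a median log2 ratio of 0.28. Against the gate-matched nuclei, with both wells and in well 1 alone, 4 of 19 were higher and 0 lower, and the summed ratio was 1.28 and 1.34 in place of 1.14. Lgals3, a lectin that binds galactosides, stood at 1168 CPM (1057 to 1287) against 407 CPM, 2.87 times as much, with UMIs in 65 members. In well 1 it stood at 1110 CPM against 351 CPM in gate-matched nuclei, and in well 2 at 2005 CPM against 549 CPM. By sum it was thus higher within each well. Among the 6 members of well 2, however, it ran from 0 CPM to 7157 CPM, so the size there leans on 1 nucleus. After thinning, 58.1% of members (47.0 to 68.7), 23.6% of the other macrophage nuclei (21.0 to 26.3) and 10.9% of epithelial nuclei kept a Lgals3 UMI, and before thinning the shares were 75.6%, 45.6% and 37.5%. The lysosomal protease gene Ctsl stood at 49.0 CPM against 114 CPM, but within well 1 at 52.4 CPM against 39.9 CPM in gate-matched nuclei. Syngr1, a vesicle membrane protein, stood at 17.3 CPM against 41.2 CPM, and within well 1 at 15.4 and 15.7 CPM.

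Surface and adhesion genes were among the lists with most genes higher. Of 13 counted, 5 were 2-fold higher and 0 lower, and 4 of 13 within well 1 against gate-matched nuclei. Cd44, the hyaluronan receptor, stood at 980 CPM (879 to 1090) against 410 CPM, with UMIs in 66 members. In well 1 it stood at 943 CPM in members and 385 CPM in gate-matched nuclei, and in well 2 at 1515 CPM and 537 CPM. Icam1 stood at 268 CPM against 118 CPM, but 1 nucleus held 58.1% of its UMIs, and without that nucleus the ratio was 0.971. Vcam1, whose product was used in the sort, stood at 386 CPM (324 to 458) against 166 CPM, but 2 nuclei held 53 of its 134 UMIs. Cd14, a co-receptor for bacterial lipopolysaccharide, stood at 236 CPM against 88.5 CPM. Pecam1, an adhesion gene that also marks endothelium, stood at 54.8 CPM in 7 members.

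Genes of antigen presentation did not move as 1 group. Of 13 genes of the list for MHC class II and costimulation, 2 were 2-fold higher, Cd86 and Cd274, and 1 was lower, H2-DMa. Against gate-matched nuclei 1 of 13 was higher, Cd274, and 2 were lower, H2-DMa and Ciita, and within well 1 the same 3 of 12 passed. Cd86, a ligand that costimulates T cells, stood at 2947 CPM (2769 to 3133) against 1318 CPM, with UMIs in 79 members, and at 1.81 times the level of gate-matched nuclei in well 1. Cd274, which encodes the checkpoint ligand PD-L1, stood at 130 CPM against 49.3 CPM. The invariant chain gene Cd74 stood at 1984 CPM (1838 to 2138) against 1908 CPM, and H2-Aa at 874 CPM (778 to 978) against 988 CPM. Ciita, the master regulator of class II genes, stood at 167 CPM (127 to 216) against 322 CPM.

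Lists of nutrient handling held few genes past 2-fold. Of 18 amino-acid transporter genes, 3 were 2-fold higher and 1 lower: Slc7a2, a carrier of arginine and lysine, at 107 CPM against 37.8 CPM, Slc7a1, and the lysosomal peptide carrier Slc15a3 at 571 CPM against 284 CPM, with Slc36a1 lower at 31.7 CPM against 66.0 CPM. Of 9 genes counted for folliculin, the Rag GTPases and the TFE factors, 0 were 2-fold higher and 1 was lower, the scaffold gene Lamtor1 at 28.8 CPM against 80.3 CPM. That list summed to 1.22 times the other macrophage nuclei (1.14 to 1.29) and 1.41 times the gate-matched nuclei of well 1 (1.32 to 1.51). Fnip2 stood at 1200 CPM (1087 to 1321) against 763 CPM, and Fnip1 at 822 CPM (729 to 923) against 570 CPM, while Flcn stood at 49.0 CPM (28.6 to 78.5) against 43.4 CPM. Of 24 lysosome genes, 0 were higher and 2 lower. Of 18 genes for glycolysis and hypoxia, 2 were higher, the glucose carrier Slc2a1 at 95.2 CPM against 47.1 CPM and Vegfa at 104 CPM against 45.7 CPM, and 0 were lower, with a summed ratio of 1.19 (1.10 to 1.29), and 1.29 (1.18 to 1.40) within well 1. Of 11 respiratory chain genes, 0 were higher and 1 lower, Ndufs1 at 26.0 CPM against 56.7 CPM, and the list summed to 0.729 times the other macrophage nuclei (0.630 to 0.840), with a median of -0.43 on the log2 scale.

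Of 7 resident macrophage genes outside the gate, 1 was 2-fold higher and 4 were lower, among them the transcription factor Maf at 57.7 CPM against 319 CPM and the selenium carrier Selenop at 63.4 CPM against 227 CPM. Within well 1 against gate-matched nuclei 1 of 6 was lower, with a summed level 0.978 times theirs. The higher one was the growth factor gene Igf1, at 202 CPM against 81.2 CPM, of which 1 of the 8 nuclei with a UMI held 37.1%. The gate on resident genes removed 224 nuclei from the group but not from the other macrophage nuclei, so this contrast is partly set by the rule. Of 18 identity genes without the gate genes, 2 were higher, Cd14 and Vcam1, and 1 was lower, the lysozyme gene Lyz2 at 144 CPM against 540 CPM, which within well 1 was 0.851 times the gate-matched level. In the remaining lists, 1 of 5 alternative activation genes (Tgm2), 1 of 17 actin and podosome genes (Myo1e), 1 of 12 efferocytosis genes (Cd36) and 1 of 15 transcription factors (Creb5) were higher, and 1 of the 15 was lower (Rxra, 17.3 CPM against 44.8 CPM). The motor protein gene Myo1e stood at 2489 CPM (2325 to 2660) against 1067 CPM and Creb5 at 1987 CPM (1841 to 2141) against 944 CPM, with UMIs in 74 and 84 members. None of 13 TGF-beta genes and none of 3 S phase genes passed 2-fold in either direction.

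**Figure D3:**
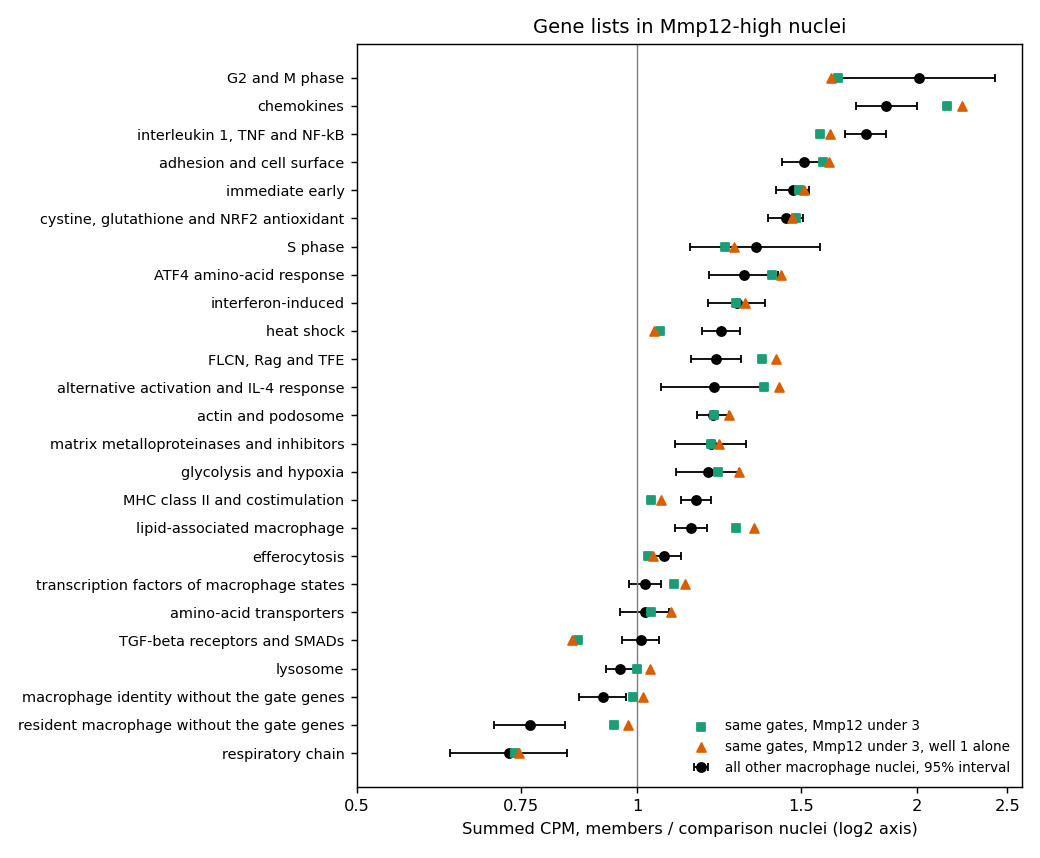
Ratio of the summed CPM of each of 25 gene lists in the Mmp12-high nuclei to that in comparison nuclei, on a log2 axis. Circles with exact 95% intervals use all other macrophage nuclei, squares the gate-matched nuclei and triangles the gate-matched nuclei of well 1, and the list for interleukin 1, TNF and NF-kB lies above 1 in all 3, at 1.76, 1.57 and 1.61. Well 1 gave 80 of the 86 members and weighs on all 3. In the 6 members of well 2 this list stood at 2227 CPM, against 2838 CPM in all other macrophage nuclei.

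Dcstamp also belongs to the osteoclast markers. That list stood at 805 CPM in members and 329 CPM in the other macrophage nuclei, with 5 of its 8 genes seen. Dcstamp accounted for 525 CPM of it and Nfatc1 for 170 CPM, the latter at 167 CPM in the other macrophage nuclei. The osteoclast protease Ctsk had 1 UMI, Calcr, Atp6v0d2 and Mmp9 had 0, and Acp5 stood at 75.0 CPM (49.0 to 110) against 49.6 CPM. Ocstamp, the relative of Dcstamp, had 11 UMIs in 10 members and stood at 31.7 CPM (15.8 to 56.8) against 10.7 CPM. Monocyte markers stood at 98.0 CPM in members and 476 CPM in the other macrophage nuclei, but at 95.6 CPM against 46.5 CPM within well 1. Only 3 of these 8 genes had UMIs in members, in 9 nuclei. Within well 1 only 1 gene of the list had enough UMIs to be compared, and Ccr2 was lower there, as given above.

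Levels were also read along the Mmp12 count among the 852 nuclei that passed the other gates, of which 643 had 0 UMIs, 123 had 1 to 2, 42 had 3 to 5 and 44 had 6 or more. Lgals3 stood at 342, 561, 819 and 1507 CPM in these 4 classes, and Alcam at 515, 606, 1105 and 1894 CPM. Cd36 stood at 128, 177, 392 and 586 CPM. Lgals3 was higher in each class than in the one before it, and the intervals of neighbouring classes did not overlap, while for Alcam and Cd36 the same order held with intervals that overlapped between some classes.

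Other genes stepped up at the limit. Cxcl2 stood at 105, 125, 567 and 990 CPM, Plau at 234, 222, 480 and 830 CPM, and Txnrd1 at 105, 114, 275 and 427 CPM, and for all 3 the intervals of the classes with 0 and with 1 to 2 UMIs overlapped. Few nuclei weighed on the last 2 classes. Without the top 3 nuclei of each of these classes, Txnrd1 stood at 206 and 214 CPM and Cxcl2 at 331 and 554 CPM. Slc7a11 stood at 28.8, 37.9, 81.9 and 313 CPM (236 to 407), but 3 of the 44 nuclei in the last class held 46 of its 55 UMIs, and without them it stood at 56.6 CPM. UMIs of Slc7a11 lay in 7 of 42 nuclei of the class with 3 to 5 and in 7 of 44 of the last. Cx3cr1 stood at 435, 308, 187 and 256 CPM, highest where Mmp12 was not seen.

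Another set peaked in the middle class. Dcstamp stood at 83.0, 272, 731 (609 to 871) and 324 CPM (246 to 420), Vcam1 at 200, 196, 597 (486 to 724) and 182 CPM (125 to 257), and Cd44 at 404, 423, 1287 (1122 to 1468) and 683 CPM (566 to 816). The counting intervals of the last 2 classes did not overlap, but few nuclei weighed on the middle class. Of its Vcam1 UMIs, 2 of 42 nuclei held 53 of 102, and without them it stood at 311 CPM. Without the top 3 nuclei of the middle class, Cd44 stood at 696 CPM and Dcstamp at 483 CPM, and 24 of 42 nuclei held Dcstamp there against 17 of 44 in the last class. The median depths of the 4 classes were 2852, 3127, 3422 and 3978 UMIs, and the parts of depth and of free RNA in these orders were not tested.

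**Figure D4:**
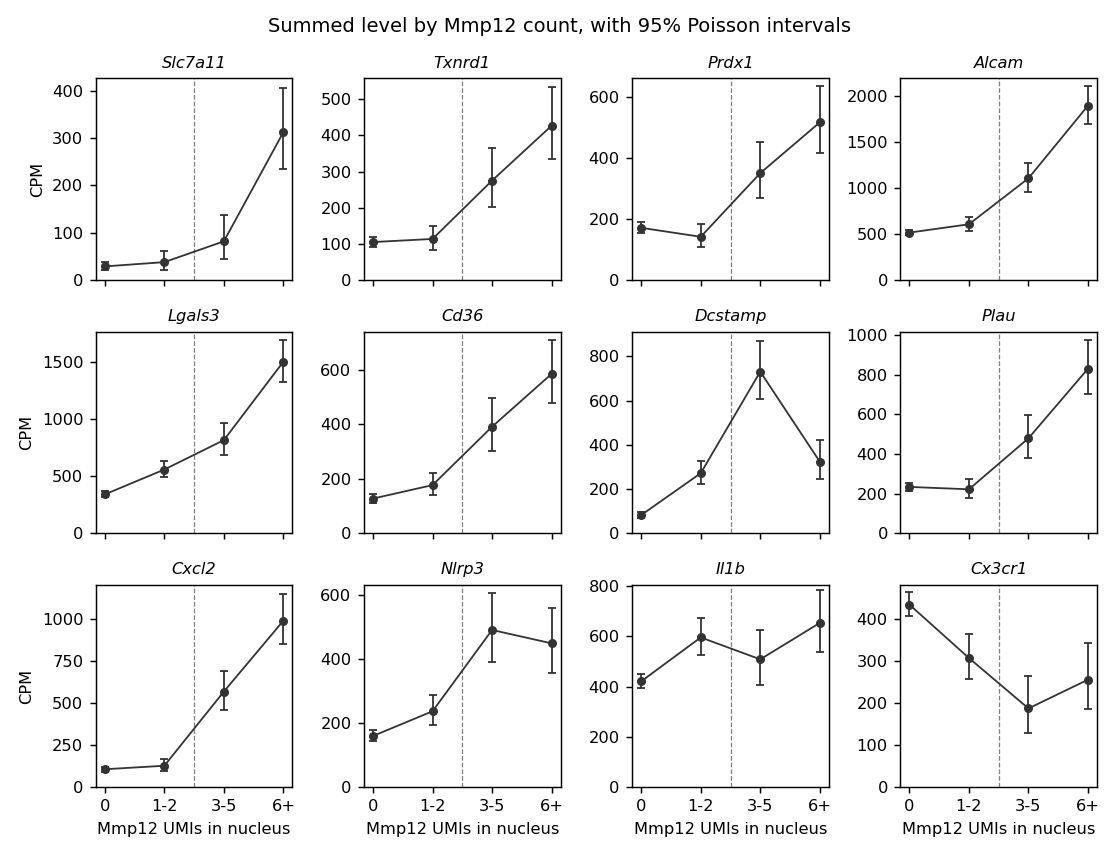
Summed CPM of 12 genes, each on its own linear axis from 0, in nuclei with 0, 1 to 2, 3 to 5 and 6 or more Mmp12 UMIs (643, 123, 42 and 44 nuclei), with exact 95% Poisson intervals. The dashed line marks the limit of the group, and Dcstamp peaks at 731 CPM in the class with 3 to 5 UMIs while Slc7a11 reaches 313 CPM in the class with 6 or more, where 3 nuclei hold 46 of its 55 UMIs.

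By correlation over these 852 nuclei, on log(1 + CPM/100), the genes most like Mmp12 among 4892 were Dcstamp (Pearson 0.31), Tnip3 (0.28), Lgals3 (0.28), Il7r (0.28) and Cxcl2 (0.26). In the 723 nuclei of well 1 the values were 0.30, 0.34, 0.29, 0.28 and 0.27. Nuclei share wells and differ in depth, so the values describe these libraries and carry no test.

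The 39 nuclei of the Gpnmb group, chosen by 2 or more UMIs of Gpnmb, Pdpn and Pde10a under the same resident gate, also held Mmp12, at 171 CPM (124 to 231), and 7 of them had 3 or more UMIs. Well 2 gave 31 of the 39, whereas it gave 6 of the 86 Mmp12-high nuclei, so wells and groups cannot be told apart in full. Both groups met in Lgals3, at 1168 CPM in the Mmp12-high nuclei and 1158 CPM in the Gpnmb group. Before thinning, shares of nuclei were also close for Alcam (72.1% of members, 74.4% of the Gpnmb group), Slc7a11 (16.3%, 20.5%), Il7r (37.2%, 38.5%) and Txnrd1 (54.7%, 51.3%). After thinning, the Gpnmb group had lower shares of these 4, such as 38.5% for Alcam against 45.3%, with intervals that overlap. Tnip3 shares were further apart before thinning, at 40.7% and 5.13%. After thinning they were 12.8% (6.56 to 21.7) and 2.56% (0.0649 to 13.5), with intervals that overlap. Summed over both wells, the groups parted in Cd36, at 490 CPM against 19.9 CPM, and in the lipid droplet protein gene Plin2, at 245 CPM against 923 CPM. Cathepsin D (Ctsd) stood at 309 CPM against 1210 CPM, and Fnip2 at 1200 CPM against 2345 CPM. Class II genes were higher in the Mmp12-high nuclei, with Cd74 at 1984 CPM against 227 CPM and H2-Aa at 874 CPM against 119 CPM. Dcstamp stood at 525 CPM against 31.8 CPM. The 6 members of well 2 had 0 Dcstamp UMIs and held Cd36 in 1 nucleus. The part of the wells in the contrasts of these 2 genes, of Tnip3 and of Ctsd was not tested.

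Part of this contrast held within wells. In well 2, Cd74 stood at 1069 CPM in the 6 members and 152 CPM in the 31 Gpnmb nuclei, and in well 1 at 2047 CPM in 80 and 368 CPM in 8. H2-Aa stood at 713 and 110 CPM in well 2 and at 885 and 138 CPM in well 1. Plin2 did not keep its direction: it stood at 356 CPM against 1370 CPM in well 2, but at 237 CPM against 80.5 CPM in well 1, and Fnip2 turned likewise, at 1604 against 3452 CPM and 1172 against 253 CPM. In well 1, 1 of the 8 Gpnmb nuclei held 53.5% of their UMIs.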

How the data were processed

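Nuclei of control-PyMT and MYC-PyMT tumour macrophages (1 sample each) were profiled with 10x 3' v3 chemistry. The authors deposited 1 matrix of raw UMI counts for 32285 genes and 1838 barcodes (7381447 UMIs), made with Cell Ranger 5.0 on mm10 per the submitters' processing notes and with version 5.0.1 of its software per the file headers. For annotation, intron counting and barcode calling the sources used here give nothing. Intron counting would raise long genes. Neither well suffix could be mapped to a genotype (0 of 2), so no test, p-value or genotype comparison was made.

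Counts were summed over nuclei and scaled to CPM. Intervals are exact at 95%: Poisson for levels, conditional binomial for ratios, Clopper-Pearson for shares. They cover counting error only. A gene was compared when its UMIs in members plus those expected there from the comparison level came to at least 20, and called at 2-fold. A count of 0 was read as up to 3 counts. For shares of nuclei each nucleus was thinned to 1000 UMIs (0 members or macrophage nuclei were shallower, by the rule). Scrublet (scanpy 1.11.5), run per well, marked 0 doublets in well 1 and 4 in well 2, none of them members, and none were removed, so doublets of like nuclei would remain. The comparison was tested on simulated counts with known fold changes. Of 463 listed genes in 25 lists, 1 (Tks4) was missing from the gene symbols, and symbols that name more than 1 row were left out. Of the gene identifiers, 32158 were found in GENCODE vM21 (GRCm38).

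Named genes are the group's markers, the rule's genes, the 15 highest and 10 lowest ratios with UMIs in at least 10 nuclei and at most 25% of them in 1 nucleus, up to 8 genes of each list, and the 5 genes most like Mmp12. Some genes that this rule takes in are not reported here. Keap1, Cxcl10, Hmox1, Pecam1, Csf3r, Csn3 and single genes of the Gpnmb group, the osteoclast list and the members with Slc7a11 were named after their values were seen. The members, lists and markers were chosen with earlier results of these data known. Alternatives were other limits for each gate, single wells, other comparison nuclei, thinning, equal weights, scaling, depth and low-count filters. The comparisons within well 1 against gate-matched nuclei, without the nucleus that held most UMIs of a gene, and without the members with Slc7a11 were chosen after seeing the data. Scripts ran on Python 3.11.15 with pandas 2.3.3, scipy 1.17.1, numpy 2.4.6 and matplotlib 3.10.9.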

Additional observations from a re-analysis of the deposited data

How the results depend on the processing

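No paired analysis was possible because the matrix carries no replicate numbers and neither well is tied to a sample. With Mmp12 at 5 or more UMIs the group held 55 nuclei, or 4.93% of macrophage nuclei, and at 2 or more its share was 10.7%. Well 1 alone gave a share of 10.3%, and well 2 alone 6 nuclei, or 1.77%. The 176 genes at least 2-fold higher became 89 in well 2 alone, 287 with a low-count filter of 10 and 1355 with none. The 344 genes 2-fold lower became 36 in well 2, 96 after thinning, 723 with a filter of 10, 87 with a filter of 50 and 1619 with none, as the filters change how many genes are compared. Of 76 named genes past 2-fold, 63 stayed past it in the same direction against gate-matched nuclei, 61 of 75 in well 1, 58 of 75 in well 1 against gate-matched nuclei, and 57 without the nucleus that held most UMIs. Turns of direction were sought only among the named genes and the 1 gene list past 2-fold in the main comparison. Directions turned for Ccl6 (1.13 in well 1, 1.20 there against gate-matched nuclei), Ctsl (1.38 and 1.31) and Syngr1 (1.04 in well 1). In well 2 alone they turned for the G2 and M list (0.888), Ccl4 (0.418), Igf1 (0.825), Slc15a3 (0.768) and Fosb (0). A further 21 lists fell outside the interval of their main ratio in well 2 alone. Icam1 turned at 5 or more Mmp12 UMIs (0.824) and without its top nucleus (0.971), and Prdx1 without the members with Slc7a11 (0.904). For the turns in well 2, the cause was not tested. The 6 nuclei of well 2 limit what can be said of that well, and at a median of 3836.5 UMIs per nucleus a gene without a UMI may still be transcribed.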
